A study of Mus musculus with 36 samples.

Results

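The proteasome subunit genes are the protein-coding genes whose symbol is Psma, Psmb, Psmc or Psmd followed by a number alone, and 39 of the 46893 features counted in this series met that rule. They were sorted by their place in the particle. The 34 genes called standard here are the 7 of the 20S alpha ring (Psma1 to Psma7), the 7 of the constitutive 20S beta ring (Psmb1 to Psmb7), the 6 ATPases of the 19S cap (Psmc1 to Psmc6), its 11 non-ATPase subunits (Psmd1 to Psmd4, Psmd6 to Psmd8 and Psmd11 to Psmd14) and 3 factors that help to assemble it (Psmd5, Psmd9 and Psmd10). Psmb8, Psmb9 and Psmb10, the catalytic subunits of the immunoproteasome, are described apart. Psma8 and Psmb11 are known from testis and thymus: Psma8 had 14 reads over all 36 libraries and Psmb11 had none, so both fell below the minimum mean count of 25 and were not tested. The other 37 passed it in every comparison.

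The 26S proteasome is the protease that degrades proteins tagged with ubiquitin. Its 20S core is a barrel of alpha and beta rings with the active sites inside, and its 19S cap binds ubiquitin chains, removes them and unfolds the substrate with ATP. In skeletal muscle it breaks down myofibrillar proteins and is known for its part in atrophy, while immune signals can replace the 3 catalytic beta subunits by Psmb8, Psmb9 and Psmb10, which shapes the peptides made for antigen presentation.

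RNA was sequenced from the gastrocnemius of 36 wild-type male C57BL/6 mice, 6 in each of 6 groups, which entered the study at 3 to 4 weeks of age and were kept on their diet for 12 weeks. Both sedentary groups had no running wheel: NFD-C was fed the AIN93G diet and HFD-C a high-fat diet (HFD). The 4 exercise groups were fed the HFD and ran in a wheel that was braked once a daily distance was reached, with averages of 2.1 km/day (HFD-25%), 4.2 km/day (HFD-50%) and 6.3 km/day (HFD-75%), or ran without a limit at an average of 8.3 km/day (HFD-U). No group ran on the AIN93G diet, so diet was compared only between sedentary mice. The tissue is whole muscle: summed fibre markers such as Acta1 and Ckm reached 91970 to 174000 CPM (a gene's reads scaled to a common library total) per mouse, endothelial markers 133.7 to 484.2 CPM and immune cell markers 34.6 to 108 CPM, with Cd3g at 0 in 33 libraries. In such samples fewer cells of a type and less RNA per cell cannot be told apart.

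Between 13060090 and 27981702 reads were counted per library, and the 39 genes took 0.333% to 0.603% of them. Libraries stood apart in 2 ways. Features linked to ribosomal RNA held 2.12% to 3.54% of the counts in HFD-C mice 1 to 4 and 2.01% to 3.80% in NFD-C, but 0.551% to 0.627% in HFD-C mice 5 and 6 and 0.404% to 1.02% in the runners. HFD-50% mouse 4 carried more proteasome mRNA than the rest, and its ribosomal RNA share of 1.02% was the highest of the runners, where the next was 0.823%.

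The constitutive subunits were abundant and the immunoproteasome subunits scarce. On the FPKM scale (CPM per kilobase of gene length), which allows genes to be compared, Psmb7, the subunit with trypsin-like activity, was highest at 220.1 ± 25.7 (SD, n = 36 mice). The ubiquitin receptor Psmd4 was at 124 ± 31.0, and Psmd8, a subunit of the 19S lid, at 163 ± 41.1. The beta ring ranged from Psmb2 at 75.3 FPKM to Psmb7, the alpha ring from Psma3 at 32.6 to Psma6 at 98.9, the ATPases from Psmc6 at 48.7 to Psmc3 at 135, and the non-ATPases from Psmd11 at 29.2 to Psmd8. Within these 4 classes the highest level exceeded the lowest by 2.78 to 5.56 times. These ranges depend on the deposited gene lengths. Psma3, with 3325 bases, and Psma6, with 1103, had mean counts of 1880 and 1881. The assembly factors lay far below, with Psmd5 at 7.75 ± 1.41, Psmd9 at 7.10 ± 0.914 and Psmd10 at 4.85 ± 0.681 FPKM.

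Each immunoproteasome gene stood well under the constitutive gene whose product it replaces. Psmb5 (chymotrypsin-like) exceeded Psmb8 by 36 times, Psmb6 (caspase-like) exceeded Psmb9 by 78.8 times and Psmb7 exceeded Psmb10 by 24.4 times, as geometric means of the FPKM ratio over 36 mice. Group means of the log2 ratio Psmb8/Psmb5 ran from -5.53 ± 0.44 in HFD-75% to -4.91 ± 0.75 in HFD-25%, and those of Psmb10/Psmb7 from -4.74 ± 0.33 in NFD-C to -4.47 ± 0.44 in HFD-25% (SD, n = 6 each). For Psmb9/Psmb6 they ran from -6.72 ± 1.59 in HFD-50% to -5.86 ± 1.21 in HFD-25%. The group means of each ratio lay closer together than the mice of the group with the widest spread.

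**Figure D1:**
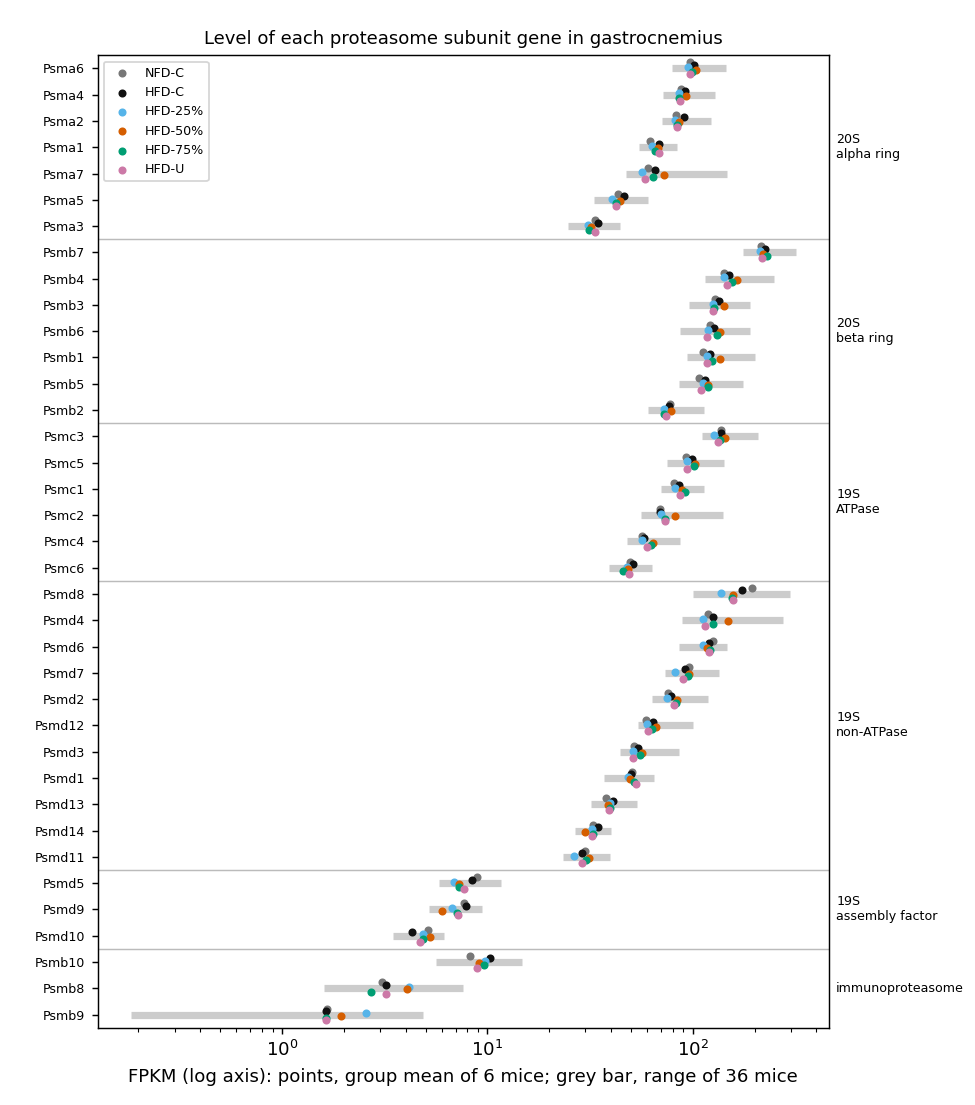
FPKM on a log axis for the 37 genes above the count minimum, ordered by class and level. Points are group means of 6 mice and the grey bar is the range over 36 mice. Most standard genes sit between 29.2 and 220.1 FPKM with their 6 points close together, and the assembly factors and immunoproteasome genes have group means of at most 10.3 FPKM.

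Group means of the standard genes hardly separated the 6 groups. On the CPM scale, used here for 1 gene across mice, the highest group mean of a standard gene exceeded its lowest by 1.08 to 1.42 times, with a median of 1.12. The highest mean was in HFD-50% for 18 of the 34 and the lowest in HFD-25% for 17. As a level for each mouse, the deviation of log2 CPM from the gene's mean over 36 mice was averaged over the 34 genes. That level was -0.07 ± 0.09 in HFD-25%, -0.01 ± 0.08 in HFD-U, -0.00 ± 0.11 in NFD-C, 0.02 ± 0.12 in HFD-75%, 0.03 ± 0.13 in HFD-C and 0.04 ± 0.22 in HFD-50% (SD, n = 6). Neighbours in this order differed by less than the SD of either group. The HFD-50% mean rested on mouse 4 at 0.49, since the other 5 mice lay between -0.08 and -0.04. The mouse numbered 1 was lowest in NFD-C, HFD-C, HFD-75% and HFD-U, and the labels do not say what the number stands for.

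**Figure D2:**
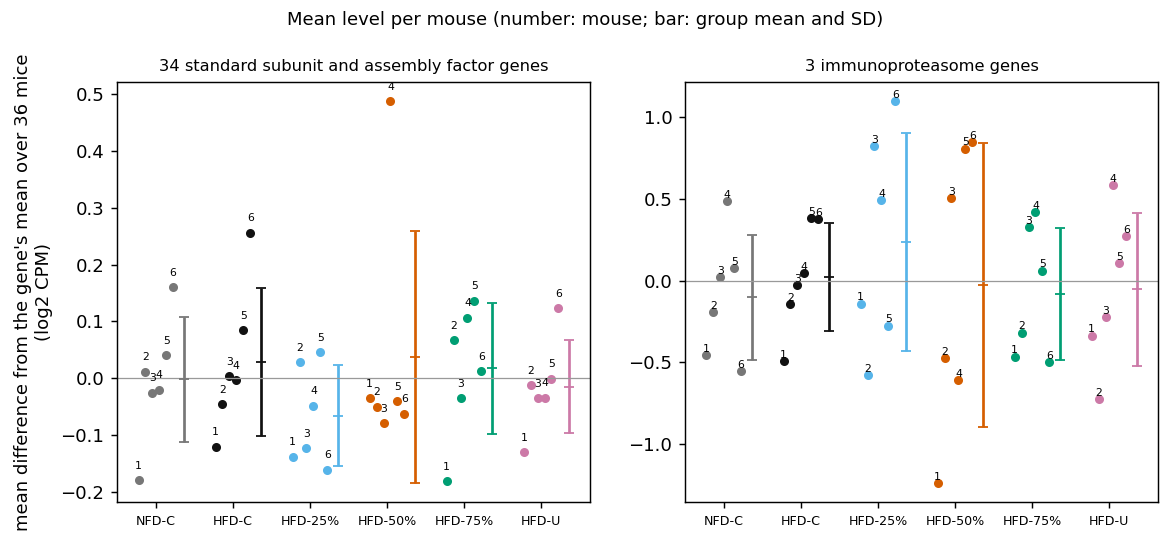
Mean deviation of log2 CPM from each gene's mean over 36 mice, for every mouse, over the 34 standard genes (left) and the 3 immunoproteasome genes (right). Numbers are mouse numbers within the group and bars are the group mean and SD. HFD-50% mouse 4 is at 0.49 on the left, where every other mouse lies between -0.18 and 0.26, while on the right the mice of all groups overlap.

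The first question was whether the diet changed these genes without exercise. In NFD-C against HFD-C, 0 of the 37 genes passed an adjusted p of at most 0.05 in edgeR's quasi-likelihood test, as did 0% of all genes, and 0 passed at an unadjusted p, where 4.12% of all 12247 genes did. DESeq2 gave 0 by both rules. The median log2 fold change of the standard genes was -0.06, against 0.00 over all genes tested, with 10 above and 24 below 0. The smallest p belonged to Psmd10, known as gankyrin, which held 6.33, 7.27 and 8.91 CPM (lowest, median and highest) in NFD-C and 5.06, 6.25 and 7.55 in HFD-C, a log2 fold change of 0.26 (SE 0.15, unadjusted p = 0.0932 in edgeR, adjusted p = 1). Next came Psma1, at -0.13 (unadjusted p = 0.171 in edgeR), Psmb10, at -0.32 (unadjusted p = 0.176 in edgeR), Psmd12, at -0.11 (unadjusted p = 0.243 in edgeR), and Psmd8, at 0.17 (unadjusted p = 0.258 in edgeR). For Psmd10, all 6 NFD-C mice lay above the HFD-C median and 2 above every HFD-C mouse. Psmd10 overlaps Atg4a, a more highly counted gene on the other strand, and the library kit is not stated to mark strand, so their reads cannot be told apart where they overlap.

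Each exercise group was then compared with HFD-C to ask what running did on the HFD. The 4 comparisons share the same 6 HFD-C mice, so their values are given side by side and not as independent results. No member passed an adjusted p of at most 0.05 in any of them, with either edgeR or DESeq2, where edgeR called 0.0082% of all genes in HFD-25% and none elsewhere. At an unadjusted p, edgeR called 2 of 37 in HFD-25%, both lower, where 6.98% of all genes passed and 3.58% passed and were lower, 1 in HFD-50%, lower as well, where 10.7% passed and 4.89% were lower, 0 in HFD-75%, where 5.47% passed, and 0 in HFD-U, where 5.46% passed. DESeq2 called 2, 1, 0 and 0. Over both directions the share of the 37 was under that of all genes in each of these edgeR comparisons with all mice. With HFD-C mice 5 and 6 alone it was over that share in HFD-25% and HFD-U. There 10 and 5 of the 37 passed, beside 11.6% and 11.8% of all genes, and 0 passed in HFD-50% and HFD-75%.

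The intervals bound what could have been missed only within the fits with every HFD-C mouse. They take no account of the ribosomal RNA share. For Psmb5 in HFD-U the interval was -0.42 to 0.29. With HFD-C mice 5 and 6 alone its log2 fold change was -0.47, outside that interval. In HFD-75%, HFD-U and NFD-C the 95% interval of the fold change against HFD-C lay within 1.5-fold in either direction for all 34 standard genes, in HFD-25% for 32, and in HFD-50% for 28. Every interval of a standard gene lay within 1 log2 unit in all of these comparisons. The median log2 fold change of the standard genes was lowest in HFD-25%, at -0.09, and highest in HFD-50%, at 0.04, with HFD-U at -0.06 and HFD-75% at 0.00 (HFD-50% was at -0.07 without mouse 4), while the median over all genes was within 0.02 of 0 in each.

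**Figure D3:**
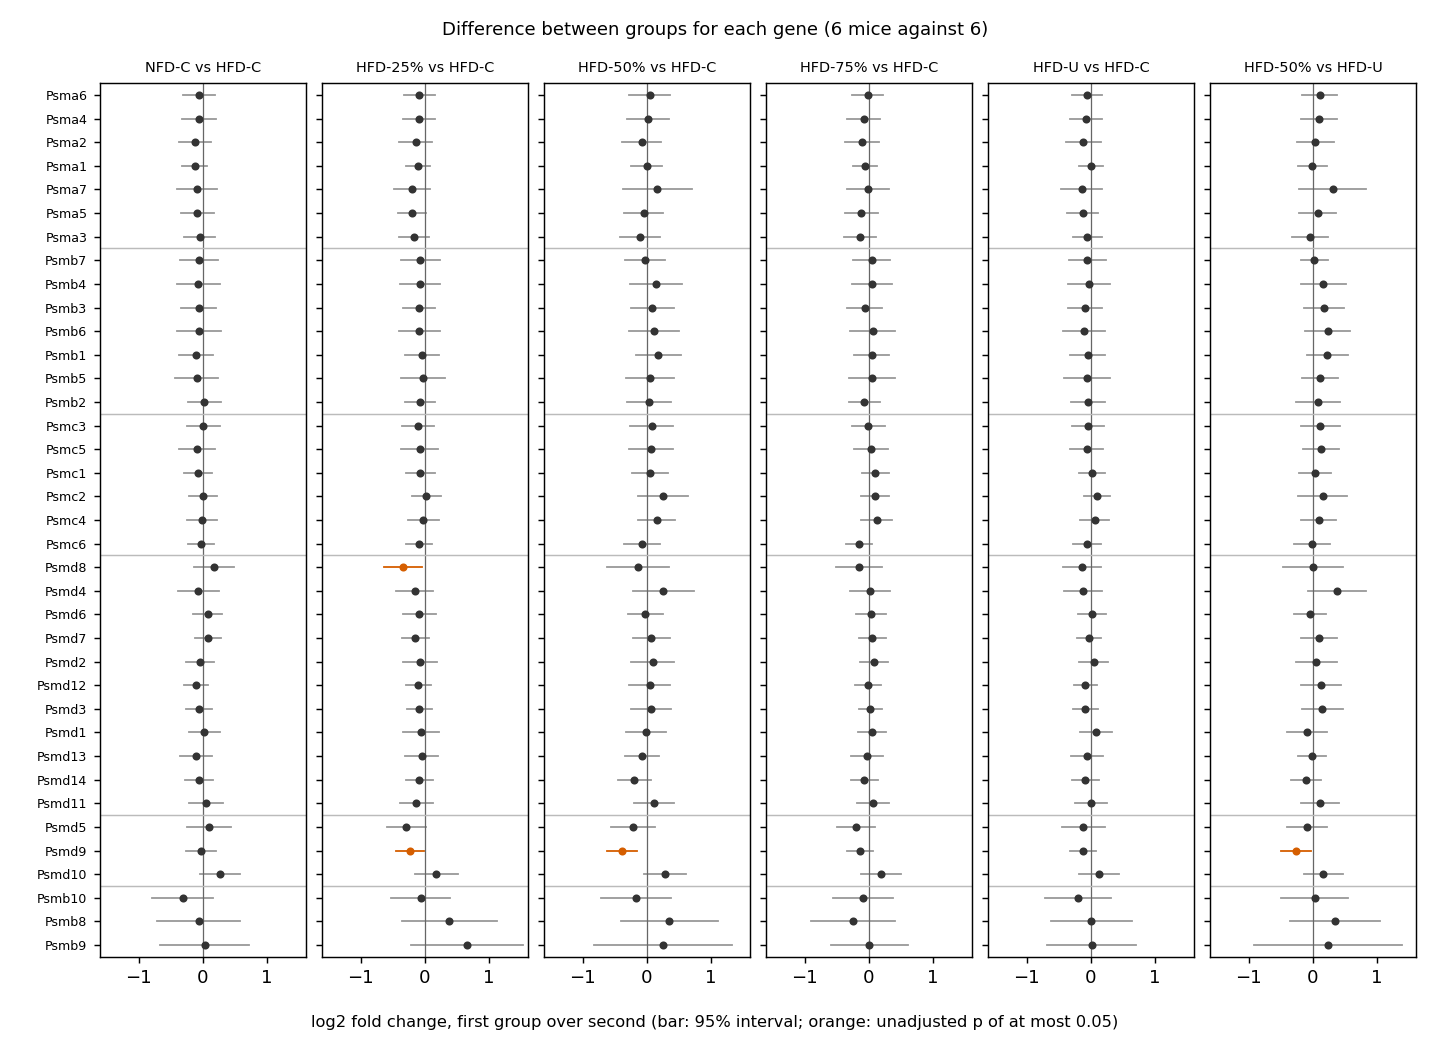
Log2 fold change of each gene with its 95% interval in the 6 comparisons of 6 mice against 6, first group over second. Orange marks an unadjusted p of at most 0.05 and horizontal lines separate the classes in the order of the plot of levels. Psmd8 and Psmd9 are orange in HFD-25%, Psmd9 is orange in both HFD-50% columns, and intervals of the immunoproteasome genes are the widest.

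Psmd9 was the gene with the smallest p in both comparisons of HFD-50%. It encodes a chaperone that binds ATPases during assembly of the 19S base and is not kept in the finished particle. It held 13.4, 15.3 and 18.8 CPM in HFD-50% and 18.7, 20.01 and 22.3 CPM in HFD-C (lowest, median and highest). HFD-25% mice held 15.2, 17.1 and 19.5, HFD-75% mice 16.4, 18.7 and 20.8, HFD-U mice 16.7, 18.3 and 20.97, and NFD-C mice 17.3, 19.4 and 24.3. In HFD-50%, 5 of 6 mice lay below every HFD-C mouse, and all 6 below the HFD-C median. Its log2 fold change against HFD-C was -0.38 in HFD-50% (SE 0.11, 95% interval -0.62 to -0.15, unadjusted p = 0.00338 in edgeR, adjusted p = 0.213). In HFD-25% it was -0.23 (SE 0.10, unadjusted p = 0.037 in edgeR, adjusted p = 0.688), with 4 of 6 mice below every HFD-C mouse. In HFD-75% and HFD-U the values were -0.14 and -0.12, with unadjusted p of 0.165 and 0.218 in edgeR.

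After Psmd9, the smallest p in HFD-50% belonged to Psmd10 at 0.29, Psmd14, the deubiquitinase of the lid, at -0.19, Psmc2 at 0.25 and Psmd5 at -0.21, with unadjusted p of 0.0801, 0.135, 0.2 and 0.21 in edgeR. Without mouse 4 Psmc2 was at 0.01 and the other 3 at 0.30, -0.28 and -0.23 for Psmd10, Psmd14 and Psmd5, and without HFD-C mouse 6 Psmd10 was at 0.34 (unadjusted p = 0.0448 in edgeR). In HFD-75% the smallest p was that of the ATPase gene Psmc6, at -0.16 (unadjusted p = 0.116 in edgeR), and Psmd9 was next, before Psmd5 at -0.20, Psmd10 at 0.19 and Psma3 at -0.14, with unadjusted p of 0.172, 0.221 and 0.234 in edgeR. Without HFD-C mouse 6 Psmd5 was at -0.29 there (unadjusted p = 0.0313 in edgeR). In HFD-U Psmd9 led with Psma5 at -0.13, Psmd8 at -0.14, Psmd12 at -0.09 and Psma7 at -0.14 behind it, at unadjusted p of 0.263, 0.328, 0.332 and 0.353 in edgeR.

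Leaving out each mouse in turn gave for Psmd9 -0.44 to -0.35 in HFD-50%, with unadjusted p between 0.00155 and 0.00929 in edgeR. With HFD-C mice 5 and 6, the 2 with a low ribosomal RNA share like that of the runners, as the only HFD-C mice, it was -0.28 (unadjusted p = 0.126 in edgeR). In 1 fit over all 36 mice it was -0.39 with an adjusted p of 0.033 in edgeR, which was the only adjusted call of a member in any of the alternatives run. In HFD-25% the unadjusted call of Psmd9 was lost without HFD-25% mouse 3, 4, 5 or 6 or HFD-C mouse 1, 2 or 4, with unadjusted p up to 0.087 in edgeR. It was at -0.12 with HFD-C mice 5 and 6 alone (unadjusted p = 0.424 in edgeR), at -0.13 with the log2 ribosomal RNA share as a covariate (unadjusted p = 0.355 in edgeR) and at -0.21 with no minimum count (unadjusted p = 0.102 in edgeR).

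Psmd8, a 19S subunit next to the deubiquitinase Psmd14, was the other gene called in HFD-25%. It held 203, 269 and 323 CPM in HFD-C and 155, 214 and 249 in HFD-25% (lowest, median and highest), and every HFD-25% mouse lay below the HFD-C median and 2 below every HFD-C mouse. The log2 fold change was -0.33 (SE 0.14, unadjusted p = 0.0299 in edgeR, adjusted p = 0.674), and the call was lost without HFD-25% mouse 1 or 6 or HFD-C mouse 3, 4 or 5, with unadjusted p up to 0.0885 in edgeR, and in the fit over all 36 mice (unadjusted p = 0.0817 in edgeR). Without HFD-50% mouse 4, Psmd8 was at -0.43 in HFD-50% against HFD-C (unadjusted p = 0.00685 in edgeR, adjusted p = 0.267), beside Psmd14 at -0.28 (unadjusted p = 0.0228 in edgeR, adjusted p = 0.396), and 3 genes passed in place of 1, where 9.84% of all genes did. Its level was highest in NFD-C, at 223, 306 and 358 CPM. Psmd5, a further assembly factor, came next in HFD-25% at -0.29 (SE 0.14, unadjusted p = 0.0589 in edgeR), and then Psma5 at -0.20 (SE 0.10, unadjusted p = 0.0761 in edgeR). Psmd5 passed without HFD-C mouse 4 or 6 (unadjusted p = 0.0345 and 0.00916 in edgeR) and Psma5 without HFD-C mouse 1 (unadjusted p = 0.042 in edgeR). A pseudogene of Psma5 is annotated, so some of its reads may be shared.

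For the constitutive catalytic subunits differences were small in the fits with every HFD-C mouse. Against HFD-C, Psmb5, Psmb6 and Psmb7 had log2 fold changes between -0.11 and 0.12 in the 4 exercise groups, none with an unadjusted p under 0.475 in edgeR. With HFD-C mice 5 and 6 alone, Psmb5 was at -0.43 in HFD-25% and -0.47 in HFD-U (unadjusted p = 0.0226 and 0.0206 in edgeR). Psmb6 was then at -0.38 and -0.42 (unadjusted p = 0.0482 and 0.0368 in edgeR). Psmb7 passed in neither, and no catalytic subunit did in HFD-50% or HFD-75%. With the log2 ribosomal RNA share as a covariate Psmb7 was at -0.34 in HFD-U (unadjusted p = 0.0478 in edgeR). None passed an adjusted p. The medians below again use every HFD-C mouse. The 7 genes of the alpha ring had medians of -0.14, -0.08, -0.07 and -0.00 from HFD-25% over HFD-75% and HFD-U to HFD-50%. In that order the ATPase medians were -0.08, 0.06, -0.02 and 0.07, and those of the non-ATPases -0.09, 0.02, -0.06 and 0.04.

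These medians shifted with the HFD-C libraries. With HFD-C mice 5 and 6 alone, the median of the standard genes was -0.09 in HFD-50% and -0.23 in HFD-25%, with HFD-U at -0.19 and HFD-75% at -0.20. At an unadjusted p, 10 genes were then lower in HFD-25%, among them Psmd8, Psmc3 and Psmd4, where 11.6% of all genes passed, and 5 in HFD-U (Psmd4, Psmb6, Psmc5, Psma6 and Psmb5), where 11.8% passed, with none in HFD-50% or HFD-75%. With the log2 ribosomal RNA share as a covariate 12 were lower in HFD-25%, where 13.3% of all genes passed in either direction, and 8 in HFD-U, where 12.4% did. None of these passed an adjusted p in edgeR. HFD-C mouse 6 had the highest standard level of the sedentary mice, 0.26, and HFD-C mouse 1 the lowest of its group, -0.12. The median of the standard genes in HFD-25% was -0.03 without mouse 6 and -0.13 without mouse 1, with 3 genes passing an unadjusted p in either case, where 6.98% and 6.75% of all genes did. Running and the ribosomal RNA share cannot be told apart in the comparisons with all 6 HFD-C mice.

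HFD-50% was also set against HFD-U, so that both groups ran. In that comparison 1 of 37 genes passed an unadjusted p, against 12.4% of all genes and 5.34% that were lower, and 0 an adjusted one, against 0.00844%, with edgeR and with DESeq2. It was again Psmd9, at -0.26 (SE 0.11, unadjusted p = 0.0282 in edgeR, adjusted p = 0.353, and 0.0526 unadjusted without mouse 4; the call was also lost without HFD-50% mouse 1 or HFD-U mouse 1 or 6), with 5 of 6 HFD-50% mice below every HFD-U mouse. Psmd4 followed at 0.37 (SE 0.21, unadjusted p = 0.0949 in edgeR). It held 155, 173 and 379 CPM in HFD-50% and 129, 157 and 190.5 in HFD-U (lowest, median and highest), and the value of 379 was that of mouse 4, without which the difference was 0.09. Without that mouse the median of the standard genes went from 0.09 to -0.04, and 2 genes passed an unadjusted p, Psmd8 at -0.30 and Psmd14 at -0.19, where 11.3% of all genes passed. Psmb1 (0.22), Psmb6 (0.23) and Psma7 (0.31) came next with all 6 mice, at unadjusted p of 0.158, 0.183 and 0.228 in edgeR, and were at 0.07, 0.11 and -0.04 without mouse 4.

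To ask for a dose response, a linear and a quadratic term of distance were tested together. Over the 30 HFD mice, at 0, 25, 50, 75 and 100 percent of the unrestricted distance, 1 of 37 genes passed an unadjusted p, where 12.2% of all genes did, and 0 an adjusted one, where 0.683% did, in edgeR. DESeq2 gave the same 2 counts. The gene was Psmd9, whose fitted curve at the middle distance lay 0.25 log2 units below the mean of its ends (unadjusted p = 0.00413 in edgeR, adjusted p = 0.161). With HFD-C mice 5 and 6 as the only sedentary mice its p was 0.104, unadjusted in edgeR. Without HFD-50% mouse 4, Psmd8 and Psma3 passed an unadjusted p as well. Next came Psmd10 (unadjusted p = 0.116 in edgeR) and Psmd5 (unadjusted p = 0.135 in edgeR), then Psmd14 and Psma3 at 0.229 and 0.326, and without HFD-C mouse 6 Psmd5 was at 0.0321. Over the 24 runners alone 0 of 37 passed either rule in edgeR and DESeq2, where 8.49% of all genes passed the unadjusted and 0.0419% the adjusted one. The smallest p there were 0.11 for Psmd4, 0.137 for Psmd9, 0.146 for Psmd7, 0.159 for Psmd11 and 0.24 for Psmb6, all unadjusted in edgeR, and that of Psmd4 was 0.228 without HFD-50% mouse 4.

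The immunoproteasome genes spread widely between mice of a group. Psmb8 held 2.19, 3.93 and 5.72 CPM (lowest, median and highest) in HFD-C and 2.64, 3.44 and 6.29 in NFD-C. HFD-25% mice held 2.76, 4.69 and 9.32, HFD-50% mice 2.24, 5.17 and 7.99, HFD-75% mice 1.97, 3.19 and 5.16, and HFD-U mice 2.59, 3.69 and 6.40. Psmb9 ran from 0.204 to 4.22 CPM within HFD-50% and from 0.773 to 5.42 within HFD-25%, against 1.29 to 2.47 in HFD-C. Psmb10 was the most abundant, with medians between 9.72 CPM in NFD-C and 12.6 in HFD-C. Ranges of all 6 groups overlapped for each gene.

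Psmb9 in HFD-25% had the largest log2 fold change against HFD-C, 0.65 (SE 0.41, 95% interval -0.22 to 1.53, unadjusted p = 0.131 in edgeR, adjusted p = 0.797). It was 0.38 without HFD-25% mouse 6 (unadjusted p = 0.362 in edgeR), 0.41 without HFD-25% mouse 3 (unadjusted p = 0.336 in edgeR) and 0.85 without HFD-25% mouse 2 (unadjusted p = 0.0359 in edgeR). Psmb8 was at 0.38 there (unadjusted p = 0.287 in edgeR) and at 0.35 in HFD-50% (unadjusted p = 0.341 in edgeR). With all mice, no immunoproteasome gene passed an unadjusted p in any of the 8 tests. Intervals reached from -0.91 to 1.39 for Psmb9 in HFD-50% against HFD-U, so changes over 1.5-fold in either direction lay within the interval. Mean counts were 35.3 for Psmb9 and 71.2 for Psmb8.

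Levels of the standard genes varied together across mice. With group means removed, the median pairwise Pearson r of log2 CPM over 36 mice was 0.51 among the 34, against 0.00 over all 12053 genes tested and 0.82 among 81 cytosolic ribosomal protein genes. The points share library, depth and RNA quality, so these are descriptions. Within single groups the median was 0.26 in HFD-U, 0.39 in HFD-25%, 0.51 in HFD-75%, 0.53 in HFD-C, 0.53 in NFD-C and 0.73 in HFD-50%. Without HFD-50% mouse 4 it was 0.37 over the other 35 mice.

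Genes differed in how closely they followed the others. The ATPase Psmc3 had the highest r with the mean of the other standard genes, 0.95, followed by Psmd4 at 0.94, Psmc4 at 0.89, Psma7 at 0.89, Psmc2 at 0.89 and Psmb1 at 0.89. Psmd5 was at -0.26, Psmd9 at -0.19 and Psmd10 at 0.23, or 0.40 without HFD-50% mouse 4. Among structural subunits, Psmd11 at -0.02 and Psmd1 at 0.09 were the only ones near 0, and Psma1 went from 0.34 to -0.05 without HFD-50% mouse 4. Psmd11 and Psmd1 are scaffold subunits of the 19S lid and base.

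**Figure D4:**
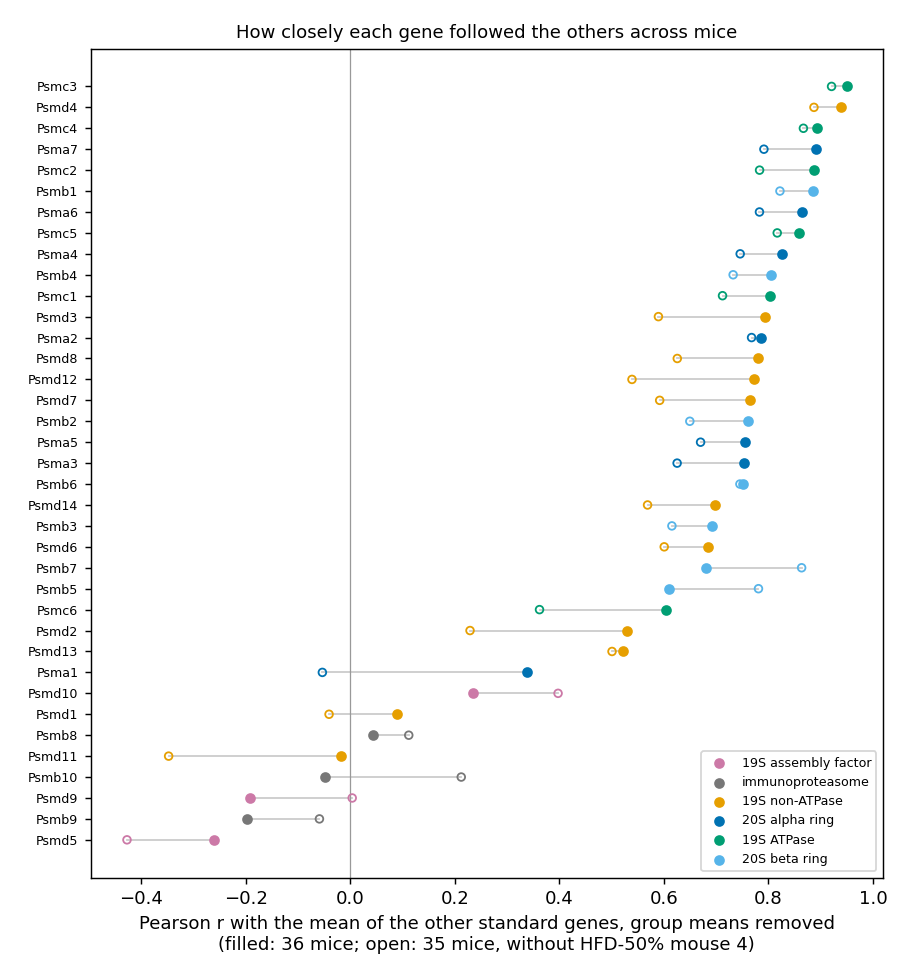
Pearson r of each gene's group-centred log2 CPM with the mean of the other standard genes, over 36 mice (filled) and over 35 mice without HFD-50% mouse 4 (open), coloured by class. The filled points of Psmc3 and Psmd4 lie at 0.95 and 0.94, whereas those of Psmd5, Psmd9, Psmd1, Psmd11 and the 3 immunoproteasome genes lie between -0.26 and 0.09, and their open points between -0.43 and 0.21.

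The genes most like the mean of the standard genes outside the family were Btf3, a factor of nascent chain binding (r = 0.923, Spearman's rho = 0.873), Ubb, which encodes a polyubiquitin (0.895 and 0.845), the nucleolar gene Npm1 (0.891 and 0.871), Eif3g, Eif4ebp1, Polr2c, Rpl4, Cops5, Rack1 and Atf4, the last at r = 0.865 (36 mice). The mean of the ribosomal protein genes had r = 0.78 with the standard genes, and 0.66 without the 2 mice farthest from its median. The difference between short and long genes in a library had r = 0.66, or 0.59 without its 2 farthest mice. Its part in the shared variation was not tested.

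The immunoproteasome genes formed a group of their own. Their median pairwise r was 0.64, while the r of their mean with that of the standard genes was -0.10 (rho = -0.08). Their closest genes were Bst2 (r = 0.87), Ggnbp1, Icam2, B2m at 0.84, Ndufb7, Arhgef25, Ifitm3, Gbp9, Gbp3 and Srgn. B2m is the light chain of the class I molecules that present proteasome peptides, and Bst2, Ifitm3, Gbp3 and Gbp9 are known as interferon-induced genes. Among cell markers, the mean of 7 endothelial genes had r = 0.66 with the immunoproteasome mean, that of the blood genes (hemoglobins and Alas2) 0.61 and that of 12 immune cell genes 0.26. Without the 2 farthest mice of each, the first was 0.618, the blood genes 0.635 and the immune cell genes 0.429. The part of endothelial cell or blood content in these levels was not tested.

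Promoters were read for genes that moved together and for those that did not, to show the sequences side by side. RefSeq promoters of the build GRCm38.p6 (250 bases before to 50 after the annotated start) were matched to 32 of the 39 genes, 34 promoters in all, since Psma6 and Psmc2 have more than 1. The counts themselves were made on GRCm39. Searched on both strands were TGACNNNGC, the core of the antioxidant response element, which NFE2L1 and NFE2L2 (regulators of proteasome genes) are known to bind, the CCAAT box, and GAAA followed after 2 bases of any kind by a further GAAA, as in interferon-response elements. In the 5 stretches shown no match overlapped another. The 250 bases before the start are given 5′ to 3′ on the gene's strand, with matches in capitals, for Psmd4 and Psma7 (closely following the others), Psmb6, Psmd9 (not following) and Psmb9 (immunoproteasome), at chr3:95042615-95042864 (minus strand), chr2:180042465-180042714 (minus), chr11:70525107-70525356 (plus), chr5:123227940-123228189 (plus) and chr17:34187331-34187580 (minus):
Psmd4: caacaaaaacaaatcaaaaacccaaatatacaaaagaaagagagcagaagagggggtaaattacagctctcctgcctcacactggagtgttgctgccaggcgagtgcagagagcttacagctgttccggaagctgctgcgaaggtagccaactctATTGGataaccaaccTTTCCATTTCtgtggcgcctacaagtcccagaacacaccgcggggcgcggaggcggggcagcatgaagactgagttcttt
Psma7: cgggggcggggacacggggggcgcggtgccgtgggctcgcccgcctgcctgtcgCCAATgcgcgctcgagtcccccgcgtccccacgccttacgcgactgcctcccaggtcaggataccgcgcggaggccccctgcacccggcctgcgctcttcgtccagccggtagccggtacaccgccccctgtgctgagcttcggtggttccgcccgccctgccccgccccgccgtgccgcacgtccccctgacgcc
Psmb6: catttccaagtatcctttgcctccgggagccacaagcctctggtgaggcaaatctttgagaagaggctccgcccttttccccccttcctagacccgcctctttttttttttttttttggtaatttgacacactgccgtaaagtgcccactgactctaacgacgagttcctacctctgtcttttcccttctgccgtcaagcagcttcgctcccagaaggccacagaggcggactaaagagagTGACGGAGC
Psmd9: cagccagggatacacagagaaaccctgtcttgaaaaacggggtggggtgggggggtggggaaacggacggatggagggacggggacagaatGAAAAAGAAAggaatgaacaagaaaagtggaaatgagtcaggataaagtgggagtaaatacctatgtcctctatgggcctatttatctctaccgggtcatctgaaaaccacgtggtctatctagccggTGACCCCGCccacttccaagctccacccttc
Psmb9: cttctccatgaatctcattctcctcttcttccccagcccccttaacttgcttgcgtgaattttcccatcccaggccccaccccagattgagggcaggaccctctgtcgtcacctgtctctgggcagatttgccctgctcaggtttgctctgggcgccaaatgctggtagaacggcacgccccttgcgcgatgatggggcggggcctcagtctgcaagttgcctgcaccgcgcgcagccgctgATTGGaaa

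TGACNNNGC was found in 5 of the 34 promoters (Psmb5, Psmb6, Psmc6, Psmd12 and Psmd9), 14.7% against 12.4% of all 32851 promoters, and CCAAT in 13, 38.2% against 37.4%. The GAAA pair was found in 3 (Psmb3, Psmd4 and Psmd9), 8.82% against 3.44%. Both Psmb6, with r = 0.75, and Psmd9, with r = -0.19, hold TGACNNNGC, and a match is a description of the letters, not a bound site.

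In HFD-50% mouse 4, 28 of the 34 exceeded the other 5 mice of the group (82.4%, against 27.9% of all 12053 genes tested) and 25 exceeded all other 35 mice (73.5% against 15.7%). Psma7 reached 235 CPM, where the other 5 mice of its group held 81.6 to 98.6 and the highest of the other 35 was 136.5. Psmd8 reached 449 CPM against 172 to 219, Psmd4 379 against 155 to 184, and Psmc2 252 against 115 to 135. All 6 ATPases, all 7 alpha subunits, 10 of 11 non-ATPases and 5 of 7 beta subunits lay above the rest of the group. Psmb5 at 109 CPM and Psmb7 at 244 lay within the range of the group, as did Psmd1, Psmd5 and Psmd10, while Psmd9 at 13.4 was the lowest of its group. No immunoproteasome gene was raised, and Psmb10 at 7.18 CPM lay below the other 5 mice.

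**Figure D5:**
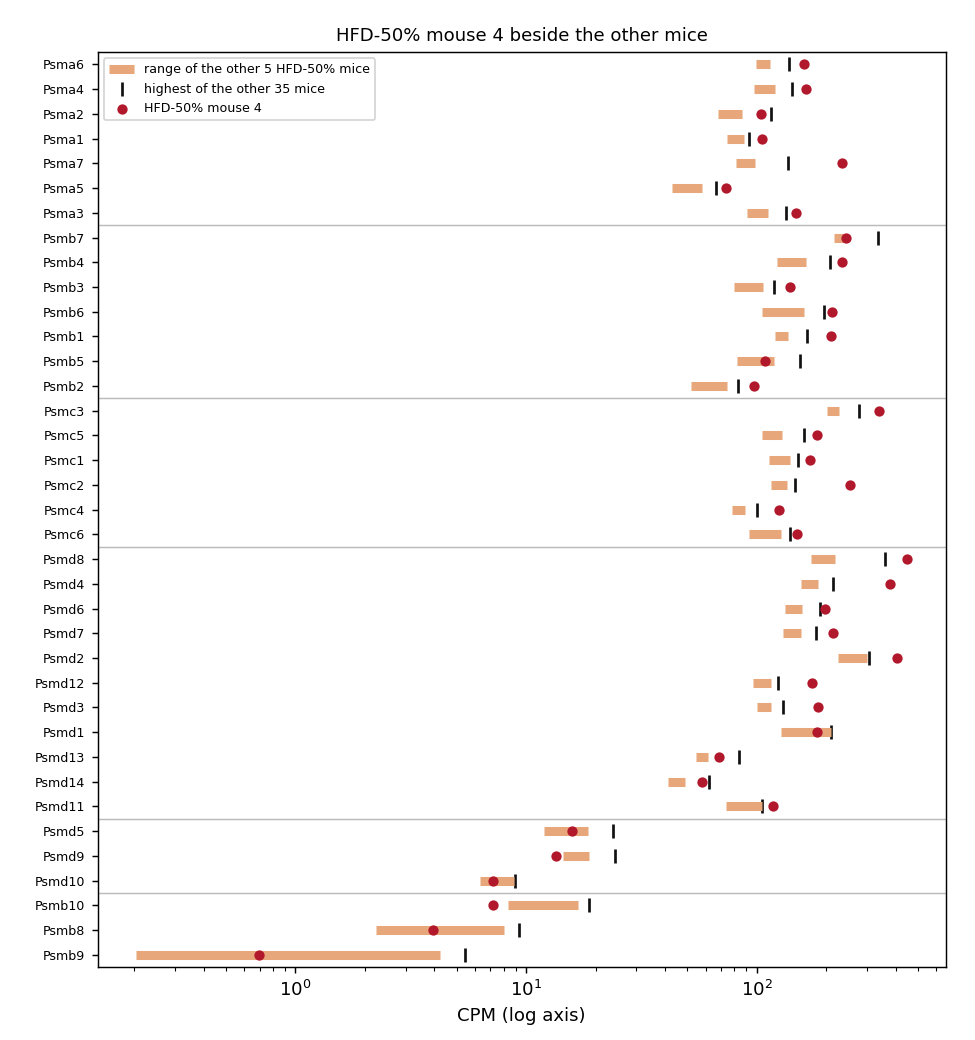
CPM on a log axis of HFD-50% mouse 4 (red), the range of the other 5 HFD-50% mice (orange bar) and the highest of the other 35 mice (black tick) for each gene. In 25 of the 34 standard genes the red point lies to the right of the tick, and it lies within or below the bar for the assembly factors and the immunoproteasome genes.

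Some other genes of the pathway stood out in the same animal, where 27.9% of all genes lay above the other 5 mice of the group. Above them lay 4 of 5 atrophy ligases, 3 of 5 chaperones of 20S assembly and 4 of 7 other 26S-bound factors. Counts were 3 of 6 for regulators of proteasome genes and 3 of 6 for ubiquitin and E1 genes. They were 3 of 10 for ubiquitin shuttle and extraction factors and 0 of 5 for activators and inhibitor of the 20S core. Trim63 (MuRF1) and Fbxo32 (atrogin-1), ubiquitin ligases of muscle atrophy, held 2136 and 1995 CPM, where the other 5 mice held 310.8 to 1023 and 375 to 1239. Nfe2l2 was at 122 CPM against 37.3 to 60.5, Ubb at 1111 against 453 to 567, the proteasome-binding protein gene Zfand5 at 1004 against 346 to 551, Txnl1 at 167 against 87.2 to 99.9, the ubiquitin receptor Adrm1 at 131 against 73.9 to 94.2 and the 20S assembly chaperone Pomp at 106 against 54.2 to 78.2. Of 13 antigen processing and interferon genes 0 lay above the other 5 mice. Their median fold over the group median was 0.69, beside 0.99 for all genes tested. The activator subunit Psme1 was at 17.4 against 26.6 to 41.9, and the regulator Nfe2l1 at 393 against 398 to 682. Ube3c, Fbxo21 and Uba6 lay below the other 5 mice as well. The library also had the lowest Acta1 of all 36, at 14190 CPM, the lowest Col1a1, at 2.20 CPM, and the lowest Col3a1, at 5.67 CPM. Other fibre markers went both ways. Ckm, Myh2 and Myh4 lay below the other 5 mice of the group, and Tnnt3 lay above them, at 23900 CPM against 15210 to 20300. Myh1, Myh7, Atp2a1 and Mb lay within their range. The part of tissue composition in these values was not tested.

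Other genes of the pathway were read from the same fits, beside the same backgrounds of all genes. The activators and inhibitor of the 20S core (Psme1 to Psme4 and Psmf1) had 0 of 5, the other 26S-bound factors 0 of 7 and the ubiquitin shuttle and extraction factors 0 of 10 genes at an unadjusted p in each of the 8 tests, with edgeR and with DESeq2. Of the 5 chaperones of 20S assembly Psmg3 passed, in the trend over 30 mice (unadjusted p = 0.0406 in edgeR, adjusted p = 0.384), and not without HFD-50% mouse 4 (unadjusted p = 0.0543 in edgeR).

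Among 6 regulators of proteasome genes, Foxo1, a transcription factor known to induce Trim63 and Fbxo32, had a log2 fold change against HFD-C of 1.33 in HFD-50% (SE 0.32, unadjusted p = 0.000861 in edgeR), 1.22 in HFD-75% (SE 0.29, unadjusted p = 0.000779 in edgeR) and 0.98 in HFD-25% (SE 0.32, unadjusted p = 0.00734 in edgeR). Its trend over 30 mice passed at an adjusted p of 0.04 in edgeR, which became 0.0646 without HFD-50% mouse 4. Trim63 was at 1.07 in HFD-75% and 1.13 in HFD-50%, and Fbxo32 at 0.70 and 0.89, with unadjusted p between 0.00578 and 0.026 in edgeR. Without mouse 4 the values in HFD-50% were 0.61 for Trim63 (unadjusted p = 0.0471 in edgeR) and 0.47 for Fbxo32 (unadjusted p = 0.116 in edgeR). No fit without a single mouse is given for HFD-75%, where mice also spread widely. They held 329.6, 692 and 1804 CPM of Trim63 and 461.7, 658.7 and 1555 CPM of Fbxo32 (lowest, median and highest). Sedentary NFD-C mice were also above HFD-C for Foxo1, at 0.80 (SE 0.36, unadjusted p = 0.0406 in edgeR), which DESeq2 did not call. Trim63 was at 0.43 in NFD-C against HFD-C (SE 0.15, unadjusted p = 0.012 in edgeR). None of these pairwise values passed an adjusted p in edgeR, and DESeq2 called 1 regulator at an adjusted p, in HFD-50% and in HFD-75%. Over the 5 atrophy ligases the median in HFD-50% was 0.13, beside 0.01 over all genes.

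Of the 13 antigen processing and interferon gamma genes, 3 passed an unadjusted p in HFD-25% against HFD-C, all higher. Of all genes 6.98% passed there in either direction. They were Irf1 (0.86, SE 0.26, unadjusted p = 0.00483 in edgeR), Nlrc5, the activator of class I genes (0.96, SE 0.35, unadjusted p = 0.0159 in edgeR), and B2m (0.42, SE 0.18, unadjusted p = 0.0347 in edgeR), with adjusted p between 0.437 and 0.685. The median of the list was 0.25, beside -0.01 over all genes. Of the 7 endothelial markers only Tie1 and Cdh5 passed an unadjusted p in the same comparison. They were at 0.77 and 0.69 (unadjusted p = 0.0193 and 0.0269 in edgeR). Summed endothelial markers of HFD-25% mice ranged from 141.5 to 484.2 CPM and those of HFD-C mice from 137 to 266. In HFD-U Nlrc5 was at -0.83 (SE 0.39, unadjusted p = 0.0484 in edgeR). Psmb8, Psmb9 and Psmb10 did not pass the test in either group.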

How the data were processed

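RNA of 36 gastrocnemius muscles, 6 mice in each of 6 groups, was sequenced after poly(A) selection. The deposited values were raw counts of reads per gene, and the submitters' processing notes name HISAT2 2.0.5, featureCounts 1.5.0-p3, StringTie 1.3.3b, DESeq2 1.20.0 and edgeR 3.22.5. The labels name the build mm10, whereas the chromosome accessions in the table are those of GRCm39. Whether counting used strand is not given in the sources used here.

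Groups came from the treatment label. Genes whose counts averaged 25 or more in a fit were tested with edgeR 4.0.16 (R 4.3.3, limma 3.58.1), using TMM factors, the quasi-likelihood F-test and Benjamini-Hochberg adjustment over all genes of the fit. DESeq2 1.42.0 was the alternative tool. CPM and FPKM were computed from the counts with the deposited gene lengths, and log2 CPM used a prior count of 2. Depth was 13060090 to 27981702 reads. The scripts were tested on simulated data.

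Genes were named by a fixed rule: the catalytic subunits, the 5 smallest p of each test, and the highest and lowest level of a class, with others chosen after their values were seen. The members and lists were chosen with earlier results of these data known. Mouse numbers were compared between groups: all 6 same-numbered pairs of HFD-U and HFD-C had a correlation of deviations over 0.1 (0.125 to 0.51). The labels do not say that such mice were paired. The HFD-U values in the Results come from the fit without a replicate block, and the block was read as an alternative. With the block 0 members passed in HFD-U, where 10.2% of all genes passed an unadjusted p. One result of the pathway lists is not reported here.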

Additional observations from a re-analysis of the deposited data

Results flagged for a closer look

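In 12 of 132 sets of 6 mice, 1 mouse lay farther from its group than Dixon's limit for 6 samples allows. Chance alone flags about 1 in 20 independent sets. These sets reuse the same mice and the genes vary together, so that rate does not apply directly. HFD-50% mouse 4 gave 9 of the 12 flags. Its mean over the standard genes was 0.488, where the other 5 mice lay between -0.0795 and -0.0358. Psmd8 was at 449 CPM (others 172 to 219), Psmd4 at 379 (155 to 184), Psmc2 at 252 (115 to 135), Psma7 at 235 (81.6 to 98.6), Psmd7 at 214 (130 to 156), Psmb1 at 209 (120 to 137), Psmd12 at 173 (96.1 to 115) and Psma3 at 148 (90.8 to 112). In other groups Psmd5 was at 21.7 CPM in HFD-U mouse 2 (13.7 to 15.9), Psma3 at 126 in HFD-U mouse 3 (101 to 110) and Psmb8 at 6.29 in NFD-C mouse 4 (2.64 to 3.98).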

How the results depend on the processing

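Of the comparisons' counts and medians, 136 values stayed within 1.5 times or 1 SD of the reported ones over the alternatives that keep every mouse, and 23 moved. With the ribosomal RNA share as a covariate, genes at an unadjusted p numbered 12 in HFD-25%, 1 in HFD-75%, 8 in HFD-U, 2 in NFD-C and 0 in HFD-50% against HFD-U, where 13.3%, 8.42%, 12.4%, 7.05% and 4.58% of all genes passed, and the standard medians were -0.24, -0.16 and -0.22 in HFD-25%, HFD-75% and HFD-U and -0.14 in HFD-50% against HFD-U. With HFD-C mice 5 and 6 alone the counts were 0 in HFD-50% and in the trend, 5 in HFD-U and 10 in HFD-25%. Of all genes 9.45%, 11.6%, 11.8% and 11.6% passed there. Medians were -0.0943 in HFD-50% and -0.23 in HFD-25%, with HFD-U at -0.19 and HFD-75% at -0.20. With no minimum count 1 gene passed in HFD-25%, where 9.18% of all genes did. With the linear term alone 0 passed in the trend over 30 mice, where 3.95% of all genes did. One fit over 36 mice gave 3 genes in HFD-50%, 1 at an adjusted p, and 2 against HFD-U, where 15% and 14.5% of all genes passed an unadjusted p. The replicate block gave 2 genes in HFD-50% against HFD-U, where 17.9% of all genes passed and the samples share only a number. It moved no other count of calls by over 1.5 times. The cause of these shifts was not tested.

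Leaving out 1 mouse at a time gave 0 to 3 genes in HFD-25% (0 without HFD-25% mouse 6), 1 to 3 in HFD-50%, 0 to 1 in HFD-75%, 0 in HFD-U and NFD-C, 0 to 2 in HFD-50% against HFD-U and 1 to 3 in the trend over 30 mice. Without HFD-50% mouse 4, which gave the highest counts in HFD-50%, against HFD-U and in the trend, 9.84%, 11.3% and 11.6% of all genes passed. Without HFD-C mouse 6, 6.98% passed in HFD-25% and 6.64% in HFD-75%. The standard median ran from -0.13 to -0.03, -0.07 to 0.09, -0.04 to 0.06, -0.10 to 0.00, -0.11 to -0.00 and -0.037 to 0.11 in the 6 pairwise comparisons, in the order above.

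Signs turned for genes that passed no test. With HFD-C mice 5 and 6 alone Psmb8 was at -0.0900 in HFD-25%, -0.13 in HFD-50% and -0.48 in HFD-U, Psmb9 at -0.00791, -0.26 and -0.25 in HFD-50%, HFD-75% and HFD-U, and Psmd5 at 0.00102 in HFD-50% and 0.00396 in HFD-75%. With HFD-C mice 1 to 4 alone Psmb8 was at 0.24 in NFD-C. With the covariate Psmb9 was at -0.10, -0.15 and -0.23 in HFD-50%, HFD-75% and HFD-U, Psmb8 at -0.40 in HFD-U and 0.21 in NFD-C, and Psmd5 at 0.0282 in HFD-75%. Against HFD-U it put Psmd4 at -0.21, Psmb1 at -0.10, Psmb6 at -0.16, Psma7 at -0.38 and Psmb10 at -0.11 in HFD-50%. With the replicate block Psmb9 was at -0.13, -0.0254, -0.0743 and -0.0396 in HFD-50%, HFD-75%, HFD-U and NFD-C, and at -0.0229 in HFD-50% against HFD-U. With no minimum count Psmb10 was at -0.00172 there, and in the fit over 36 mice Psmb9 was at -1.8e-05 in HFD-75%.

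With single mice left out Psmb9 ran from 0.38 to 0.85 in HFD-25%, -0.0630 to 0.48 in HFD-50%, -0.14 to 0.11 in HFD-75%, -0.18 to 0.16 in HFD-U, -0.11 to 0.19 in NFD-C and -0.0812 to 0.47 in HFD-50% against HFD-U. Psmb8 ran from -0.19 to 0.15 in HFD-U and -0.28 to 0.0631 in NFD-C, Psmb10 from -0.17 to 0.0652 in HFD-25%, -0.22 to 0.0427 in HFD-75% and -0.12 to 0.14 in HFD-50% against HFD-U, and Psma7 from -0.0374 to 0.39 in the last. Depth limits Psmb9 most, with a mean count of 35.3.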
